A study of Mus musculus with 8 samples.

Results

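The 4 genes described here are Pnoc, Oxtr, Prlr and Cnr1, out of 49671 Ensembl genes counted in 8 mouse tumors. They encode a neuropeptide precursor and 3 receptors for hormones or lipid messengers. Each was picked because it differed strongly between a pair of libraries whose titles carry the same number: Pnoc, Oxtr and Prlr between 2L and 2R, and Cnr1 between 4a and 4b. Those differences, and the levels in the pair that chose each gene, are therefore given as a description with no test.

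All 8 tumors have the genotype HprtCre; Ewsr1-loxP; Atf1-loxP, in which Cre from the Hprt locus recombines loxP sites in Ewsr1 and Atf1 and so joins the genes as in human clear cell sarcoma. They received no drug and were frozen when the animals became morbid, and RNA was sequenced after ribosomal RNA depletion. Ages and a control tissue are not given in the sources used here, and the titles (1, 2L, 2R, 3, 4a, 4b, 5 and 6) do not say whether a number stands for an animal. Libraries held 4817902 (library 3) to 19682149 counts (2L). Mitochondrial and abundant noncoding RNAs took 4.45% of the counts in 2L and 74.9% in library 3, so library 3 gives the least precise values. In 2R, which with 2L chose Pnoc, Oxtr and Prlr, these RNAs took 39.7% of 7847571 counts. The 2L and 2R libraries therefore also differed in this share and in depth.

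Peptide hormones are cut out of longer precursors in secretory granules and act on receptors of other cells or of the same cell. Pnoc encodes the precursor of nociceptin, an opioid-related peptide of neurons whose receptor, Oprl1, couples to inhibitory G proteins. Oxtr is the receptor for oxytocin in uterus, breast and brain and couples mainly to Gq, which activates phospholipase C. Prlr is a cytokine receptor that signals through JAK2 and STAT5 and is needed for the growth of breast epithelium. Cnr1 is the main cannabinoid receptor of neurons, is activated by lipids such as 2-arachidonoylglycerol and couples to inhibitory G proteins.

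Levels are given as CPM, the count of a gene relative to the size of its library on a common scale, with library sizes scaled by edgeR's TMM method. All 4 genes passed the filter on low counts, which kept 11505 genes. Intervals after a level are 95% exact Poisson intervals. They cover counting error only, since each library is a single sample.

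Pnoc was abundant in 2 tumors with different numbers and low in the other 6. It stood at 832 CPM in 2R (5345 counts, interval 810.1 to 855) and at 434 CPM in tumor 1 (4891 counts, 422 to 447), and these libraries held 98.0% of the Pnoc level summed over all 8. The other levels were 9.21 CPM in 2L, 6.50 in 4b, 4.26 in 3, 3.21 in 6, 1.16 in 5 and 0.952 in 4a. The intervals of 2R and 1 lay apart from each other and from the rest. That of 3 overlapped those of 2L, 4b, 6 and 5, and that of 5 also overlapped that of 4a. Over the 8 libraries Pnoc averaged 162 ± 310.0 CPM (SD, n = 8), with a median of 5.38 CPM. Scaled by the length of its exons, Pnoc exceeded 99.3% of the genes kept in 2R and 99.2% in tumor 1, but only 2.18% in 4a.

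Oxtr was highest in 2L, at 148 CPM (3787 counts, interval 144 to 153). Tumor 5 followed at 54.4 CPM, library 3 at 30.9, tumor 6 at 19.5, 4b at 11.8, 4a at 8.66, tumor 1 at 3.91 and 2R at 1.40 CPM (9 counts). The intervals of all neighbours in this order lay apart, so the gradient from 2L to 2R was wider than counting error at each step, and it spanned 106-fold. The mean was 34.9 ± 49.0 CPM (SD, n = 8) and the median 15.6 CPM.

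Prlr was also highest in 2L and lowest in 2R. It stood at 190.0 CPM in 2L (4849 counts, interval 185 to 196), 58.6 in 4b, 46.4 in 4a, 44.4 in 5, 23.4 in 3, 18.7 in 1, 3.90 in 6 and 1.87 CPM in 2R (12 counts). Along this order the intervals of 4a and 5, of 3 and 1, and of 6 and 2R overlapped. The SD of log2 CPM over the 8 libraries was 2.13 for Prlr, 2.10 for Oxtr, 2.16 for Cnr1 and 3.64 for Pnoc. The mean of Prlr was 48.4 ± 60.8 CPM (SD, n = 8). Mouse Prlr has long and short receptor forms, which counts per gene do not separate.

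Cnr1 was highest in tumor 6, outside the pair that chose it. It stood at 183 CPM in 6 (4499 counts, interval 178 to 188), 49.1 in 2R, 24.2 in 1, 20.9 in 4a, 13.7 in 2L, 12.4 in 5, 6.92 in 3 and 0.907 CPM in 4b (12 counts). Its level in 6 was 3.73-fold that in the next library, 2R. Along this order the intervals of 1 and 4a overlapped, as did those of 2L and 5, and of 5 and 3. The mean was 38.9 ± 59.97 CPM (SD, n = 8).

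**Figure D1:**
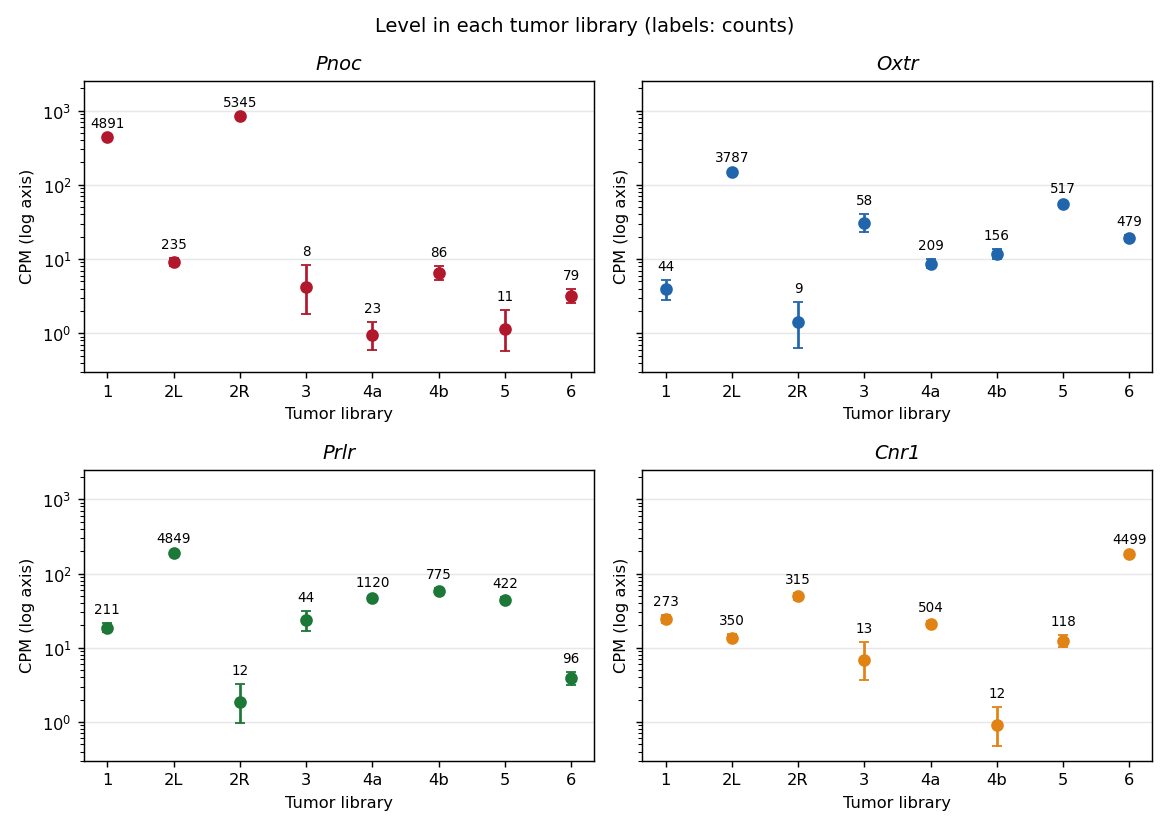
CPM of each of the 4 genes (log axis) in each of the 8 tumor libraries, with 95% exact Poisson intervals as bars and the count above each point. Pnoc stands above 400 CPM in libraries 1 and 2R and below 10 CPM in the other 6, Oxtr and Prlr are highest in 2L and lowest in 2R, and Cnr1 is highest in 6 and lowest in 4b.

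Between genes, only levels per length can be set side by side. Mean levels were 74.9 CPM per kilobase of exon for Pnoc, 7.28 for Oxtr, 6.03 for Cnr1 and 3.16 for Prlr, whose annotated exons cover 15339 bases. In its highest library Oxtr exceeded 92.0% of the genes kept, Cnr1 90.1% and Prlr 76.2% by this scale. Pnoc (ENSMUSG00000045731) lies on mm10 chromosome 14 at 65400673 to 65425472, minus strand, and Oxtr (ENSMUSG00000049112) on chromosome 6 at 112473683 to 112489943, minus strand. Prlr (ENSMUSG00000005268) lies on chromosome 15 at 10177238 to 10349180 and Cnr1 (ENSMUSG00000044288) on chromosome 4 at 33924593 to 33948831, both on the plus strand. The annotation places 1 other counted gene, Gm21973, over any of the 4; it overlaps Prlr on the same strand and had 0 counts in every library. How reads over both genes were counted is not given in the sources used here.

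The DNA just upstream of the receptor genes is shown because ATF1, the DNA-binding partner of the fusion, recognises the cyclic AMP response element (CRE), and because Oxtr and Prlr peaked in the same library. RefSeq promoter windows (build GRCm38.p6) were available for Oxtr, Prlr and Cnr1, and the stretches shown hold no base that the GENCODE annotation counts as exon; the second Prlr start lies within the gene. They read 5′ to 3′ on the strand of the gene, with the CRE core in capitals.
Oxtr, chr6:112489944-112490075, minus strand: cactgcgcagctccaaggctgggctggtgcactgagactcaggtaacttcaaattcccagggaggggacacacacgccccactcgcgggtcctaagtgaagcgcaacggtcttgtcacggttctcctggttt
Prlr, first start, chr15:10176988-10177237, plus strand: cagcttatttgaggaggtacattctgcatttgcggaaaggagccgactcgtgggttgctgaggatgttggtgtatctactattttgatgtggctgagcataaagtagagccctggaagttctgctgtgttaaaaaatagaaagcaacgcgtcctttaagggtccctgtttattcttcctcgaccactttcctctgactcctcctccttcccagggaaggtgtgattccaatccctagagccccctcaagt
Prlr, second start, chr15:10223656-10223905, plus strand: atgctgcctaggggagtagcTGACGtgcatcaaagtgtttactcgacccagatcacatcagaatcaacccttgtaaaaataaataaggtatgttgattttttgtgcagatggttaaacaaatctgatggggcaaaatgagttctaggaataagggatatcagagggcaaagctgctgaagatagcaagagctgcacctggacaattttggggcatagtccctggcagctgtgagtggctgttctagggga
Cnr1, first start, chr4:33924014-33924263, plus strand: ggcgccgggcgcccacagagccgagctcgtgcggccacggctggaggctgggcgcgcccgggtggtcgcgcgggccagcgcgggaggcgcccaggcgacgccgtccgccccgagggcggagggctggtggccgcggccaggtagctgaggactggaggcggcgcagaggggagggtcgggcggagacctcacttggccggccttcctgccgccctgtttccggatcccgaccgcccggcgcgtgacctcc
The windows searched were the 250 bases before each start (1 for Oxtr, 3 for Prlr and 3 for Cnr1), on both strands. The full CRE, TGACGTCA, was in none of the 7 windows and is in 1.55% of 32817 mouse windows of the same length. Its core, TGACG, which also lies within the full element, was in 1 of 7, the second Prlr start, 230 to 226 bases upstream, and is in 17.7% of all windows. The bases just after the second Prlr start, and just after the first Cnr1 start, matched no GENCODE transcript of these genes. The E-box CACGTG, bound by MITF and MYC among others, was 43 to 38 bases before the Oxtr start, and 49 to 44 bases before the second Cnr1 start, in both cases in bases that the annotation counts as exon; 6.02% of all windows hold it. The AP-1 motif TGANTCA, which does not overlap the others, was 20 to 14 bases before the third Prlr start and is in 6.75% of windows. A match is a description of the letters and not of binding.

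Within the 2L and 2R pair, Oxtr was 106-fold and Prlr 102-fold higher in 2L, and Pnoc was 90.4-fold higher in 2R. On the log2 scale 2L minus 2R was 6.59 for Oxtr, 6.57 for Prlr and -6.48 for Pnoc. These were ranks 5, 6 and 8 in size among 10542 genes kept whose mean over the pair was 5 CPM or more. The filter needed counts in all 8 libraries, so genes low in any library were not ranked. Among such unranked genes, the muscle gene Myh4 (11.1) and the epithelial gene Epcam (7.68) differed more. Cnr1, which this pair did not choose, stood at 13.7 CPM in 2L and 49.1 CPM in 2R, a log2 difference of -1.83 and rank 582. All 4 genes thus differed at least 2-fold, as did 16.6% of all genes; 9.43% were higher in 2L and 7.19% were higher in 2R. Since 3 of the 4 were chosen on this contrast, nothing is read from that count.

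The 4a and 4b pair gives values that did not choose Oxtr, Prlr or Pnoc. Oxtr stood at 8.66 CPM in 4a and 11.8 CPM in 4b, a log2 ratio of the counts of -0.45 with a 95% binomial interval of -0.75 to -0.14. Prlr stood at 46.4 CPM in 4a and 58.6 CPM in 4b, with a log2 ratio of -0.34 and an interval of -0.47 to -0.20. Both receptors were therefore within 2-fold in this pair, although 4a minus 4b lay beyond counting error for each. Pnoc had 23 counts in 4a and 86 in 4b, a log2 ratio of -2.77 (interval -3.50 to -2.09), at levels under 10 CPM. Cnr1 stood at 20.9 CPM in 4a and 0.907 CPM in 4b, a log2 difference of 4.33. It was the largest in size of 10360 genes that passed the same filter and limit on the pair mean. Differences of at least 2-fold were present in 3.94% of those genes, with 2.27% higher in 4a and 1.67% higher in 4b.

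**Figure D2:**
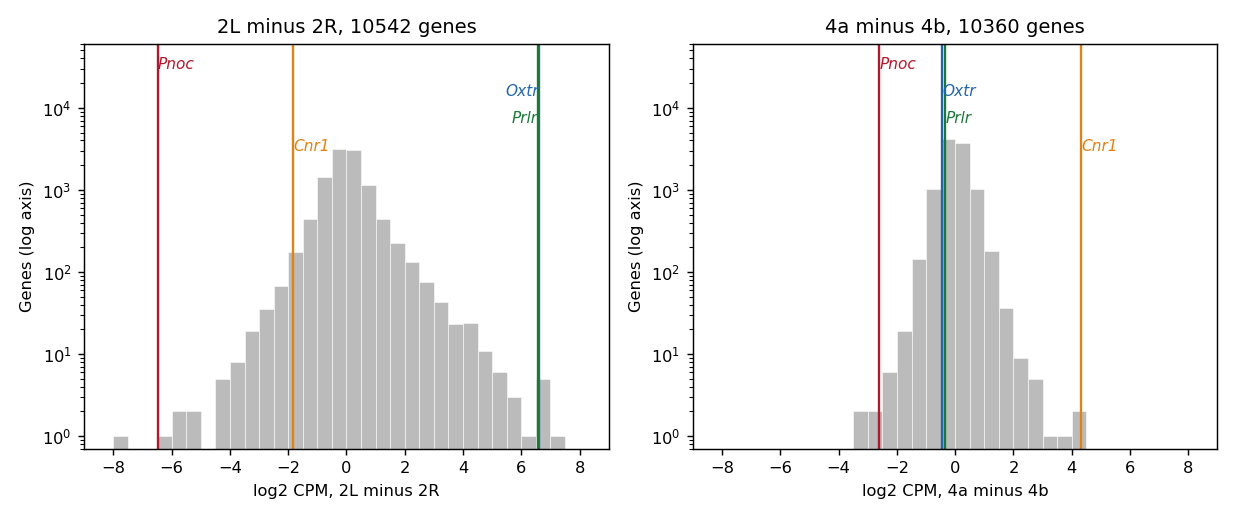
Number of genes (log axis) by log2 CPM difference, 2L minus 2R on the left and 4a minus 4b on the right, in bins of 0.5, with a vertical line at each of the 4 genes. Oxtr and Prlr lie almost on the same line at the right end of the first panel and near 0 in the second, Pnoc lies at the left end of the first and at -2.61 in the second, and Cnr1 at the right end of the second.

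Among genes that passed the filter, those nearest to the 4 on their chromosomes did not differ as strongly. The 4 were chosen for large differences, so this outcome was set in advance and the values are given as a description only. Genes low in any library were left out by the filter, so genes lying closer may be missing here. The 6 nearest genes kept around Oxtr had 2L minus 2R log2 differences of -0.17 to 0.46. Those around Pnoc had -1.59 to 1.32, with Zfp395 at -1.59, in the same direction as Pnoc. Around Prlr they ran from -2.07 to 1.24, with Nadk2 at -2.07 and Dnajc21 at 1.24. Around Cnr1, 4a minus 4b ran from -0.13 to 0.24, and the level in tumor 6 minus the median of the others from 0.04 to 0.52. The median 2L minus 2R over 464 other genes of chromosome 15, which carries Prlr, was 0.42, against -0.04 over all genes kept. The medians of chromosomes 14 and 6 were -0.06 and -0.04.

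The genes of the 4 signaling systems were read from 15 lists that hold 98 genes beside the 4. Of these, 70 averaged at least 1 CPM. Between 2L and 2R, 6 of 59 were at least 2-fold higher in 2L, against 9.43% of all genes, and 8 of 59 at least 2-fold higher in 2R, against 7.19%, with a median log2 difference of 0.05 against -0.04 over all genes kept. Between 4a and 4b, 2 of 57 were at least 2-fold higher in 4a, against 2.27% of all genes, and 2 of 57 higher in 4b, against 1.67%, with a median of -0.12 against -0.01. Among the 6 title numbers, edgeR's quasi-likelihood test called 0 of 61 pathway genes and 0.0% of all 11505 genes (Benjamini-Hochberg adjusted p under 0.05). At an unadjusted p under 0.05 these were 25 of 61 pathway genes and 24.5% of all genes, and the DESeq2 likelihood ratio test called 29 of the 61 and 20.7% of all genes.

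In the nociceptin and opioid system, the ligand gene was abundant in 2R and 1, where no receptor gene exceeded 1.95 CPM. Oprl1, the nociceptin receptor, had 22 counts in tumor 1 (1.95 CPM), 6 in tumor 6, 4 in 2L, 3 in 4a and 0 in 2R, 3, 4b and 5. In 2R, where Pnoc was highest, 0 counts allow up to 0.467 CPM by counting error. The classical opioid receptors Oprm1, Oprd1 and Oprk1 did not exceed 0.627 CPM in any library. Of the other precursors, Penk, which encodes enkephalins, ran from 5.24 CPM in tumor 1 to 65.4 CPM in 4b and stood at 6.38 CPM in 2R, so both tumors richest in Pnoc were among its 3 lowest. Pomc and Pdyn did not exceed 2.13 and 0.355 CPM.

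Most of the enzymes that cut and finish peptide precursors were present in every tumor. Pcsk1, a convertase that cuts at paired basic residues, was highest in tumor 1 at 599 CPM and was at 173 CPM in 2R, with a median of 158 CPM over the 8 libraries. Pcsk2, the other main granule convertase, did not exceed 1.05 CPM. Cpe, which trims the cut ends, was highest in tumor 1 at 204 CPM but reached only 38.8 CPM in 2R and 6.71 CPM in 6. Pam, which amidates peptides, was highest in 2R and 1, at 1625 and 1518 CPM, and ran from 175 to 1015 CPM in the others. The list of 10 processing genes held 8 with a mean of at least 1 CPM, and Scg5, the chaperone of Pcsk2, varied most on the log2 scale, from 0.122 CPM in 6 to 49.4 CPM in 2L.

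Oxytocin itself was almost undetected, whereas the related hormone gene Avp was transcribed in several tumors. Oxt had 5 counts over all 8 libraries and did not exceed 0.211 CPM. Avp, which encodes vasopressin, stood at 92.5 CPM in tumor 5 (878 counts), 24.2 in 2L, 19.3 in 1, and between 0.302 and 2.72 CPM in the other 5. Tumors 5 and 2L were also those with the most Oxtr, while tumor 1 had little, at 3.91 CPM. Among vasopressin receptors Avpr1a averaged 3.01 CPM, and Avpr1b and Avpr2 had no count, which over all libraries allows up to 0.0257 CPM.

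Genes that act downstream of Oxtr were present in every tumor. The Gq genes Gnaq and Gna11 stood at 72.9 ± 10.1 and 68.9 ± 16.7 CPM (SD, n = 8). All 8 genes of this list averaged at least 1 CPM; Rgs2 was the 1 gene at least 2-fold different in the 2L and 2R pair, at 104 CPM in 2L and 382 CPM in 2R. Rgs4, which with Rgs2 shortens G protein signals, had the highest mean and the largest spread of the list on the log2 scale, from 19.95 CPM in 4b to 485 CPM in 2L. Lnpep, the membrane peptidase that degrades oxytocin, averaged 150 ± 46.7 CPM (SD, n = 8).

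No prolactin transcript was counted in any library. Prl had 0 counts, Gh 10 counts of which 8 were in tumor 5, and of 4 placental prolactin-family genes only Prl2c2 had a count, a single one. The related receptor Ghr averaged 42.2 ± 22.2 CPM and ran from 8.41 CPM in 6 to 69.4 in 2L.

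The kinase and transcription factors below Prlr were present in all tumors, and Jak2, Stat3 and Stat5a were among those highest in 2L. Jak2 stood at 121 CPM in 2L and 49.6 to 84.3 CPM elsewhere. Stat5a stood at 151 CPM in 2L, 64.2 in 5, 38.9 in 3 and 16.7 to 33.7 CPM in the other 5, with a 2L minus 2R log2 difference of 2.89, and was the only 1 of 8 transducers at least 2-fold different between 2L and 2R. Stat5b was highest in 3, at 145 CPM. Stat3, with the highest mean of that list, averaged 254 ± 74.8 CPM (SD, n = 8).

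Known targets of the receptor were highest in different tumors. Socs2, a STAT5-induced feedback inhibitor, was highest in tumor 5 at 131 CPM, followed by 78.3 CPM in 3 and 73.6 in 2L, and stood at 13.9 CPM in 4a and 18.1 CPM in 4b, the libraries next after 2L in Prlr. Its lowest levels were 12.2 CPM in 2R and 5.28 CPM in 6, the libraries lowest in Prlr, and its 2L minus 2R log2 difference was 2.59. Cish, another STAT5 target, ran from 1.34 CPM in 6 to 13.4 CPM in 4b. Elf5, a regulator of milk-producing cells, varied most of this list on the log2 scale, with 3.92 CPM in 2L and at most 0.533 CPM elsewhere. The milk protein genes Csn2 and Wap had no count. Igf1 had the highest mean of this list, at 94.4 CPM. Tnfsf11, the RANK ligand gene that progesterone and prolactin induce in breast, ran from 0.691 CPM in 6 to 21.1 CPM in 1.

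In the cannabinoid system, most of the enzymes that make and degrade the lipid ligands were transcribed in all tumors, and they were highest in different ones. Cnr2, the cannabinoid receptor of immune cells, averaged 3.08 CPM and was highest in tumor 6 at 5.61 CPM. Dagla and Daglb, which make 2-arachidonoylglycerol, averaged 11.2 ± 3.76 and 35.5 ± 7.96 CPM (SD, n = 8). Mgll, which degrades it, stood at 8.53 CPM in 4a and 7.10 CPM in 4b, the lowest of its levels, and at 20.4 to 34.1 CPM in the other 6. Faah, which degrades anandamide, was highest in 2L at 51.97 CPM and lowest in 4a at 1.74 CPM. Napepld, an anandamide-producing enzyme, stood at 60.7 CPM in 3 and at most 10.8 CPM elsewhere. Naaa, a lysosomal amidase for related lipids, stood at 124 CPM in 6, 74.4 in 2R and 11.2 to 38.9 CPM elsewhere, and the hydrolase Abhd12, with the highest mean of its list, at 123 CPM in 6 and 34.6 to 98.0 CPM elsewhere. Ptgs2, which oxidises these lipids, varied most, from 0.935 CPM in 6 to 78.3 CPM in 4a. Of the synthesis genes Gde1 had the highest mean and reached 118 CPM in 2L, and Pla2g4e varied most, with 5.86 CPM in 3 and at most 2.39 CPM elsewhere.

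Of the shared inhibitory G protein pathway, Gnai2 and Gnai3 averaged 169 ± 25.5 and 136 ± 34.2 CPM (SD, n = 8). Arrb1, an arrestin that switches off such receptors, was highest in tumor 6, at 671 CPM against 94.7 to 249 CPM elsewhere. Gnao1, an inhibitory G protein gene of neurons, varied most on the log2 scale, from 1.83 CPM in 6 to 56.99 CPM in 3. The potassium channel genes Kcnj3, Kcnj5, Kcnj6 and Kcnj9, effectors of these receptors in neurons, averaged less than 1 CPM each. Targets of cyclic AMP and CREB were present throughout, and Pde4d had the highest mean at 235 ± 50.1 CPM. The summed level of this list, which also holds Creb1 and Atf1, was highest in tumor 1, at 1628 CPM, and lowest in 6, at 830.0 CPM. Both places rest on Pcsk1, which is also among the processing genes above. Pcsk1 made up 599 CPM of the sum in tumor 1 and 309 of 1506 CPM in 4b. It made up 43.6 CPM in 6 and 267 of 1007 CPM in 2L.

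**Figure D3:**
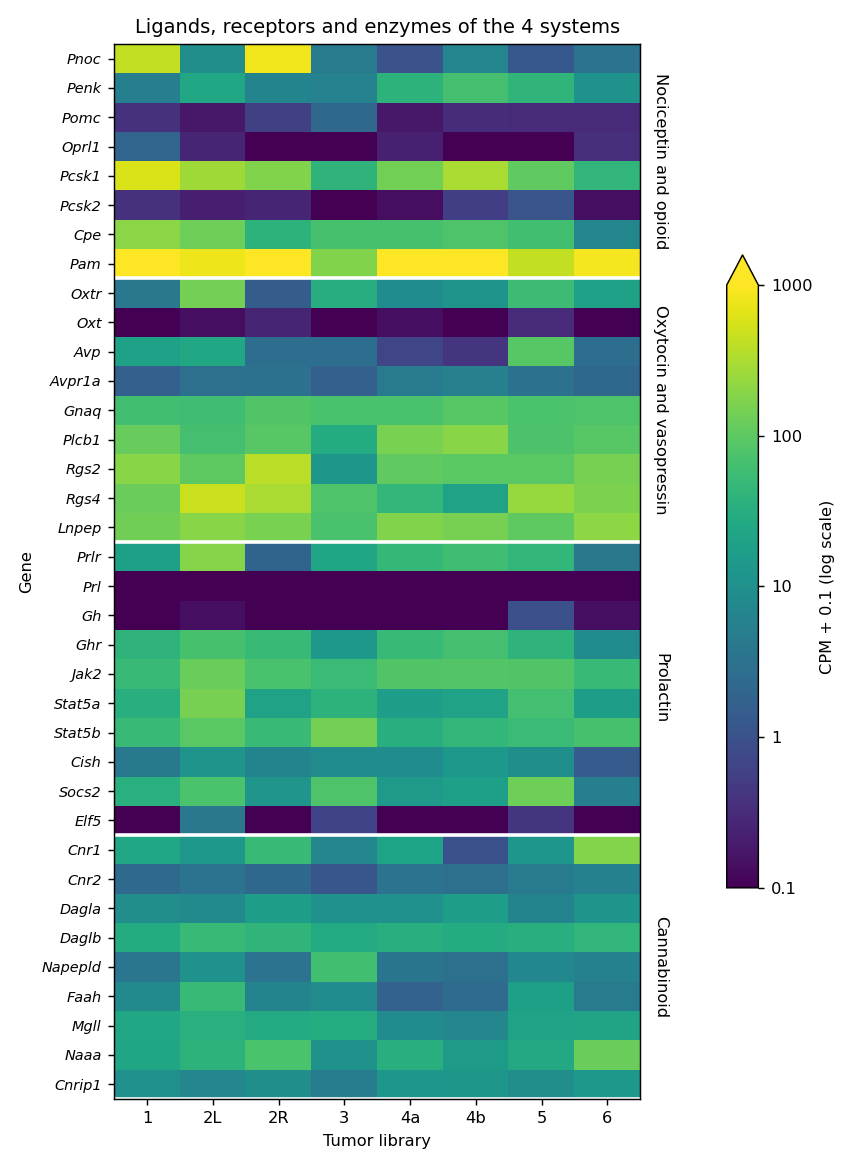
CPM plus 0.1 on a log color scale for genes of the 4 systems (rows) in the 8 tumor libraries (columns), with values above 1000 in the top color. Oxt and Prl are at or near the bottom of the scale in every library, and Oprl1 does not exceed 1.95 CPM, including in libraries where Pnoc, Oxtr or Prlr is highest.

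Markers of other cells moved with some of these levels. Genes of simple and luminal epithelium were high in the tumors with the most Oxtr: Epcam stood at 540 CPM in 2L, 460 in 5, 68.2 in 3 and at most 4.80 CPM elsewhere, and Krt18 at 332, 210 and 107 CPM in the same libraries and at most 4.35 CPM elsewhere. Krt8 and Krt19 were highest in 2L as well, at 224 and 76.7 CPM. Areg, a growth factor gene also on this list, had another pattern, with 48.7 CPM in 6, 19.2 in 1, 1.49 in 2L, 0.737 in 5 and 1.60 CPM in 3. Of this 10-gene list 5 averaged at least 1 CPM, its summed level ran from 3.10 CPM in 4b to 1179 CPM in 2L, and its milk genes Csn2 and Wap were at 0. Genes of a keratinocyte list were high in 2L and 5 too, with Dsp at 411 and 350 CPM and Dsg3 at 396 and 280 CPM. Krt14 and Col17a1 were highest in 5 and then 2L, whereas Perp was highest in 1 and Krt5 in 3, at 193 CPM. Libraries 4b and 4a, next after 2L in Prlr, had Epcam at 0.907 and 0.704 CPM and Krt18 at 0.227 and 0.456 CPM. The endothelial genes Cdh5 and Vwf were highest in 2L, then 4b and then 4a, at 126, 119 and 89.4 CPM for Cdh5. Of the 6 genes of the endothelial list 5 were at least 2-fold higher in 2L than in 2R, against 9.43% of all genes. Kdr went the other way, at 155 CPM in 2L and 1430 CPM in 2R, and the summed level was highest in 2R. In bulk tumors fewer cells of a type and less RNA per cell cannot be told apart. The part of epithelium or endothelium in the Oxtr and Prlr levels was not tested.

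Skeletal muscle genes were highest in 2L and then 3, with a summed level of 21800 CPM in 2L, 6841 in 3 and 20.6 to 125 CPM in the other 6 for 10 of 10 genes averaging at least 1 CPM. Tumor 5, second in Oxtr, had 73.9 CPM. Library 3 held 1.53% of the Oxtr count and 0.907% of the Prlr count of 2L, against a median of 1.23% for the 10 muscle genes, 1.0% for 5 epithelial genes and 6.47% for 10674 genes kept with at least 100 counts in 2L. Pnoc and Cnr1 stood at 3.4% and 3.71%. Oxtr, Prlr and these muscle and epithelial genes were all highest in 2L, which lowers their shares in advance. Nothing is therefore read from the comparison with all genes, and the source of these counts in library 3 was not tested. Without library 3, Oxtr ran in the order 2L, 5, 6, 4b, 4a, 1 and 2R.

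For Pnoc, neuronal and B-lineage markers are given. Of 12 neuronal genes 9 averaged at least 1 CPM, and the summed level ran from 72.4 CPM in 3 to 530.2 CPM in 6, with 499.8 CPM in 1 and 292 CPM in 2R. Stmn2, a microtubule protein of neurons, was highest in 1 and 2R, at 161 and 95.3 CPM, and ran from 1.06 to 43.3 CPM elsewhere. The synaptic genes Snap25 and Syt1 were also highest in 1 and then 2R, at 26.8 and 5.76 CPM for Snap25 and 8.52 and 4.98 CPM for Syt1. Gad1, an enzyme of GABA neurons, reached 7.63 CPM in 2R and 7.19 CPM in 1, its highest levels, and Nefl and Slc32a1 were highest in the same libraries without exceeding 0.779 and 0.467 CPM. Rbfox3, a defining marker of mature neurons, did not exceed 2.66 CPM, in tumor 1. Other genes of the list were highest elsewhere. Map2 was highest in 4b at 149 CPM, with 88.2 CPM in 1 and 72.9 CPM in 2R. Tubb3 and Gad2 were highest in 6, at 48.6 and 364 CPM, and Elavl4 in 5, at 6.21 CPM. The part of neurons in the Pnoc level was not tested. Of the 8 B and plasma cell genes 4 averaged at least 1 CPM, with a summed level of 866 CPM in 2R and 111 CPM, the lowest, in tumor 1. Ighm was at 415 CPM in 2R but 2.04 CPM in 1, so that markers of this lineage differed between the tumors in which Pnoc was high.

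For Cnr1, tumor 6 stood apart in other ways. It had the highest summed levels of the macrophage list, at 3818 CPM against 275 to 1668 CPM elsewhere, and of the Schwann cell list, at 603 CPM against 19.3 to 125 CPM. The lowest level of the Schwann cell list was in 2R, the library second in Cnr1. Of the 6 Schwann cell genes 4 averaged at least 1 CPM, and Cdh19 at 485 CPM and S100b at 114 CPM made up nearly all of the sum in 6, where the defining gene Sox10 was at 0 counts. Snap25 was also at 0 in 6, while Gad2, like Gad1 an enzyme of GABA neurons, was highest there at 364 CPM. The part of these cells in the Cnr1 level was not tested.

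**Figure D4:**
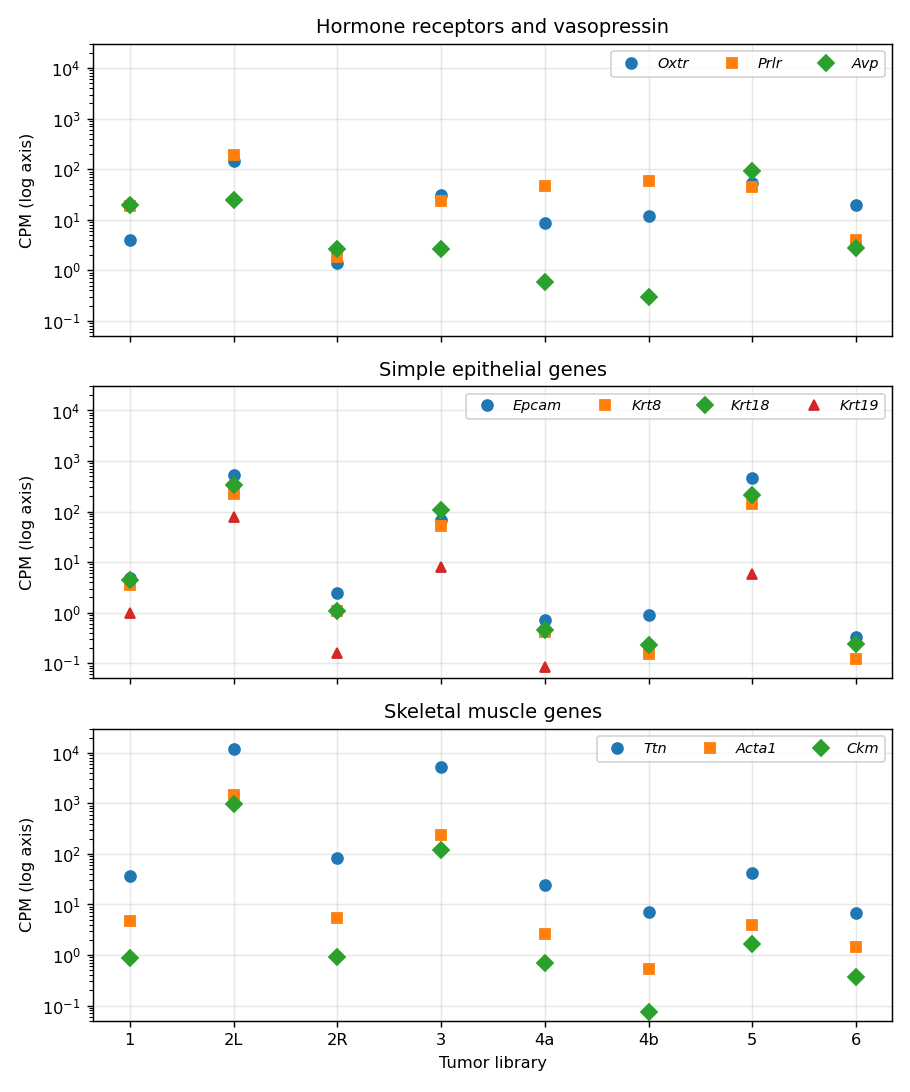
CPM (log axis) by tumor library of Oxtr, Prlr and Avp, of 4 simple epithelial genes and of 3 skeletal muscle genes, with levels of 0 not drawn. Epithelial genes are high in 2L, 3 and 5, muscle genes in 2L and 3, and Oxtr and Prlr are both highest in 2L.

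The genes of most similar pattern were found by the mean absolute difference in log2 CPM, each gene centred on its own mean over the 8 libraries, among 13709 protein-coding genes with a mean of at least 1 CPM. Nearest to Pnoc was Slpi, a secreted protease inhibitor, at a distance of 1.07 against a median of 2.84 over all genes. Slpi reached 444 CPM in 2R and 420.1 CPM in 1 and was at 2.21 to 26.8 CPM in the other 6. The next were Prok2 and Nps, which encode secreted signaling peptides, and Vwde and Chodl, at 1.15 to 1.27. These 4 were highest in tumor 1, at 10.7 to 21.2 CPM, and had no count in library 3. Prok2, Nps and Vwde did not exceed 1.87 CPM in any other library. They passed the limit on the mean only through tumor 1, so their place here rests on that library.

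Nearest to Oxtr were Nav3, Apba2, Padi4, Tmem150c and Mkx, at 0.48 to 0.65 against a median of 1.68. Nav3 stood at 130.1 CPM in 2L and 5.51 CPM in 1, and Mkx, a transcription factor of tendon cells, at 78.4 CPM in 2L and 2.49 CPM in 2R. Among the nearest to Prlr were Faim2, Card14, Rhbdl2 and Mal, at 0.48 to 0.54 against a median of 1.71; Faim2 was at 28.3 CPM in 2L and 0.311 CPM in 2R. Oxtr and Prlr were 1.29 from each other, rank 526 from Oxtr and 527 from Prlr, so neither was among the nearest genes of the other.

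Nearest to Cnr1 was Retnla, a secreted protein known from alternatively activated macrophages, at 0.40 against a median of 1.55. It stood at 105 CPM in 6, 48.4 in 2R, 18.1 in 4a and 1.89 CPM in 4b. Luzp2, Prokr2, Cntn1 and Prelid2 followed at 0.57 to 0.75, and each was highest in 6. Prokr2, a receptor for prokineticins, reached 632 CPM in 6, with 82.2 CPM in 4a and 22.2 CPM in 4b. Pnoc and Cnr1 were far from each other and from both hormone receptors, at 2.91 to 4.13.

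**Figure D5:**
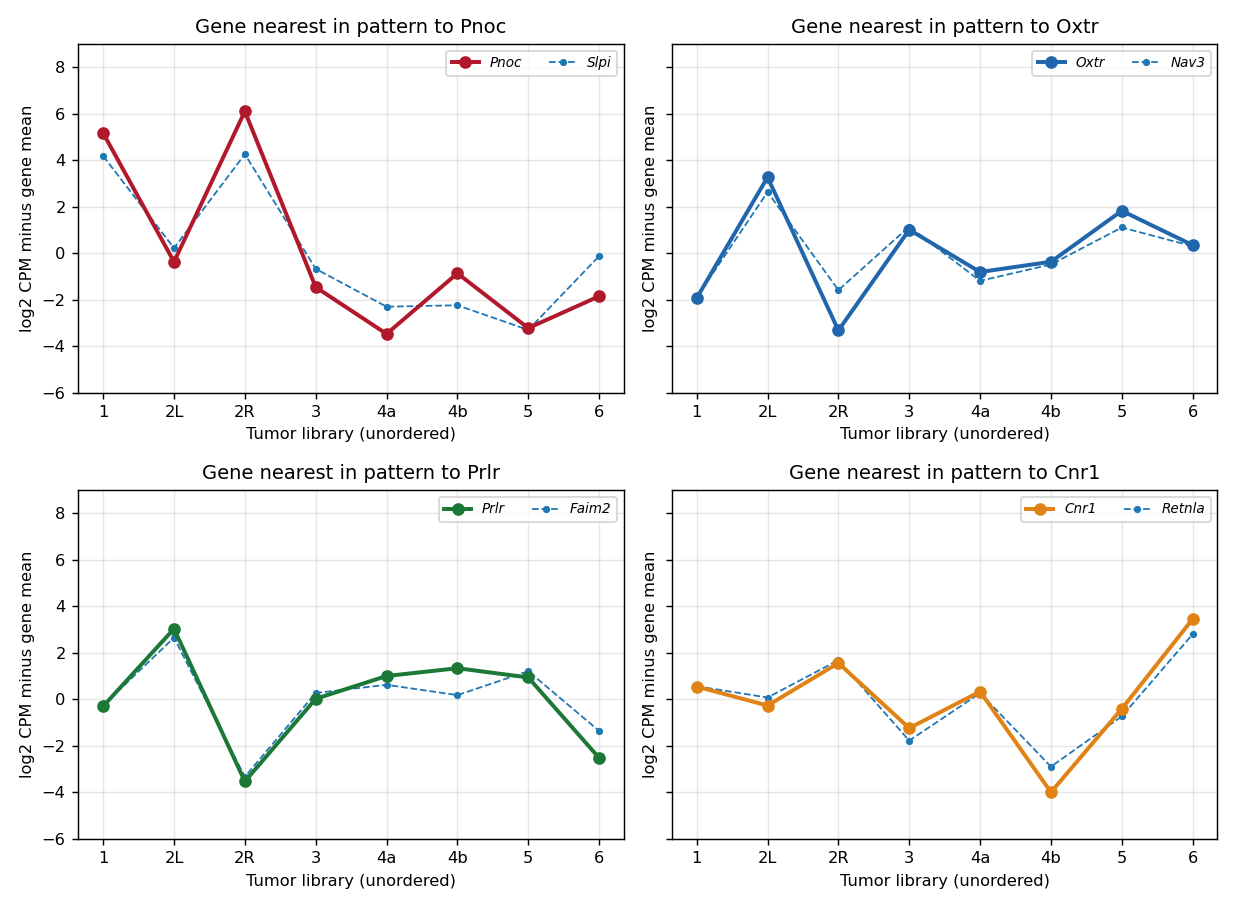
Log2 CPM minus each gene's mean over the 8 tumor libraries, for each of the 4 genes (thick line) and the protein-coding gene nearest to it (dashed line). The lines join libraries that have no order; Slpi follows Pnoc in both 1 and 2R, and Retnla follows Cnr1 down in 4b and up in 6.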

How the data were processed

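RNA from 8 tumors of 1 genotype was sequenced. The authors deposited raw counts per gene, whole numbers for 49671 Ensembl identifiers. The submitters' processing notes name the genome build mm10 and the tools STAR 2.7.5a, RSEM, featureCounts and cutadapt; the order of use, the annotation and strand handling are not given in the sources used here. GENCODE M21 named 49326 identifiers (99.3%), and the others held at most 0.0469% of a library.

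Scaling and tests used edgeR 4.0.16 in R 4.3.3. filterByExpr for 1 group (10 counts in a library of median size, 0.920 CPM, in all 8) kept 11505 genes, and TMM factors ran from 0.394 to 1.36. CPM divide counts by kept counts times this factor; log2 CPM add a prior count of 2. A count of 0 allows up to 3 counts. Length-scaled levels use the union of annotated exons. The 4 genes, the pathway lists and the markers were chosen with earlier results of these data known. Named pathway genes are the ligands and cognate receptors of the 4, the member of highest mean and the member of largest SD of log2 CPM of each list, and others with a mean of at least 1 CPM. Title numbers were compared with edgeR's quasi-likelihood F-test, whose spread rests on the 2L with 2R and 4a with 4b pairs, and with DESeq2 1.42.0. Nothing says that libraries come from separate animals, so p-values measure the spread between these libraries, which may be technical. The test was tried first on simulated data. Alternatives tried were other scalings, filters, prior counts and libraries left out. Some genes of the lists are not reported here.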

Additional observations from a re-analysis of the deposited data

Results flagged for a closer look

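Among the 4 genes and 70 pathway genes, 9 genes had a library set apart from the other 7 by more than Dixon's 95% limit for 8 samples on the log2 CPM scale, where chance flags about 1 in 20 groups. None of the 4 genes was among them. Of the 9, 8 were set apart in library 3, which holds the fewest counts. Library 3 was lowest for Ctsl at 43.1 CPM (194 to 685 CPM in the others), Rgs2 at 12.8 CPM (93.6 to 382), Jak1 at 65.5 CPM (163 to 284), Gnai3 at 63.9 CPM (119 to 172) and Pde4b at 46.3 CPM (159 to 271). It was highest for Ptpn11 at 186 CPM (101 to 133 CPM in the others), Napepld at 60.7 CPM (2.95 to 10.8) and Grk2 at 176 CPM (54.4 to 85.0). The remaining flag was Plcb4, a phospholipase C gene, at 6.63 CPM in tumor 6 and 50.1 to 113 CPM in the others.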

How the results depend on the processing

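The highest library of each of the 4 genes was the same under all 5 other scalings or prior counts and without library 3. Scaling by total counts shifts every gene of library 3 by -1.36 on the log2 scale and 2L minus 2R by 0.66; it gave 2L minus 2R of -5.82 for Pnoc and -1.17 for Cnr1, and 4a minus 4b of -0.18 for Prlr, and put library 3 below 6 and 4b for Oxtr. With no filter before TMM, Pnoc reached 772 CPM in 2R and 416 CPM in 1, Oxtr at 21.6 CPM in 6 and Cnr1 at 203 CPM in 6, outside their counting intervals. Other levels, apart from those scaled by total counts, stayed within them. The test among title numbers was not stable: 0 genes were called with TMM or DESeq2's size factors, but 6260 of 30321 with no filter and 2383 with DESeq2's likelihood ratio test, and 0 to 4548 when 2L, 2R, 3, 4a or 4b was left out (4457 without 2L and 4548 without 2R, where the spread rests on 4a and 4b alone). For pathway genes these counts were 45 of 90 with no filter, 29 with DESeq2 and 0 to 40 with a library left out (40 without 2L and 40 without 2R). Counts of genes at least 2-fold different in a pair stayed within 1.5 times. Of the 5 genes nearest to Pnoc, 2 stayed with a prior count of 0.5, 3 without library 3 and 1 with a mean of at least 5 CPM; for Prlr 3, 3 and 2 stayed, for Oxtr and Cnr1 3 without library 3. Slpi, and for Cnr1 Retnla, was nearest under each. Without library 3, 69 pathway genes averaged at least 1 CPM, an alternative chosen after seeing the data. No paired analysis was possible because the labels name 1 group. Levels under 10 CPM rest on few counts in library 3, where 3 counts are 1.60 CPM.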

Other observations

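The genes nearest in pattern to Pnoc and Cnr1 include both sides of another peptide system, chosen for mention after the values were seen. Prok2, which encodes a prokineticin, reached 13.5 CPM in tumor 1 and 1.87 CPM in 2R and stayed within 0.235 CPM in the other 6, while Prokr2, its receptor, stood at 632 CPM in tumor 6, 178 CPM in 2R and 20.01 to 82.2 CPM in the others. Nps, the gene of neuropeptide S, stood at 21.2 CPM in tumor 1, with 1.71 CPM in 2R and no more than 0.235 CPM in the rest. Prok2 and Nps averaged 1.99 and 2.96 CPM and passed the limit on the mean only through tumor 1. Their nearness to Pnoc therefore rests on that library, and nothing about a peptide system is read from it.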
